A study of Schizosaccharomyces pombe with 15 samples.

Results

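The 5 glutaredoxin genes of fission yeast (Schizosaccharomyces pombe), grx1 to grx5, were followed through an oxidative challenge. They were chosen as a family by their gene identifiers (SPAC4F10.20, SPAC15E1.09, SPCC1450.06c, SPBC26H8.06 and SPAPB2B4.02), a rule that sets no threshold on a measured value, and are 5 of the 6998 genes that the deposited count tables list. All 5 had enough counts to stand among the 5214 genes tested. RNA was sequenced from 15 libraries in 5 groups of 3, all of the wild-type strain JY450 grown in YE medium, a yeast extract medium. The first group received no irradiation, and the next 3 were labelled plasma at 10, 15 and 30 min, times that the series text places after irradiation. Plasma here is ionised gas at atmospheric pressure, a source of short-lived oxidants. Cells of the remaining group received hydrogen peroxide (H2O2). Per the labels' protocols, logarithmic or stationary cells were irradiated on a membrane filter lying on agar. The sources used here do not say which of these growth phases the libraries come from, how much plasma was applied, or how much H2O2 and for how long. The control labels give no time, so an effect of plasma and an effect of time after handling cannot be told apart.

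Glutaredoxins are small oxidoreductases that reduce disulfides and protein-glutathione mixed disulfides with electrons from glutathione, which glutathione reductase renews at the expense of NADPH. Dithiol members carry a pair of cysteines in the active site, while monothiol members keep the first cysteine alone and are best known for binding iron-sulfur clusters. In fission yeast Grx4 is a partner of the iron-responsive regulators Fep1 and Php4, and Grx5 works in mitochondria in the maturation of iron-sulfur proteins. Grx1 and Grx2 are the dithiol members, and Grx3 is the remaining monothiol member.

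The coding sequences show this division, and the stretches around the active site are printed because they define the dithiol and monothiol members. Each run is 48 coding bases, 5′ to 3′, from RefSeq ASM294v3, and the capitals mark the 4 codons of the active site. In grx1 an intron interrupts this stretch in the genome, and the printed run joins the exons.
grx1: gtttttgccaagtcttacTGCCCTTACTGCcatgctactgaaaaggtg
grx2: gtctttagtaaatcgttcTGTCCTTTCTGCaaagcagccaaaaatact
grx3: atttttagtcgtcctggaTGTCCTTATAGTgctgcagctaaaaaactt
grx4: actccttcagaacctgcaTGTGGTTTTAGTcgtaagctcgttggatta
grx5: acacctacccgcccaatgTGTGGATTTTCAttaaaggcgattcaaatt
The first of the 4 codons encodes cysteine in all 5 genes. The last encodes cysteine in grx1 and grx2 and serine in grx3, grx4 and grx5. The coding sequences hold 101 codons in grx1, 110 in grx2, 166 in grx3, 244 in grx4 and 146 in grx5, and the active site lies at codons 25 to 28, 26 to 29, 76 to 79, 172 to 175 and 51 to 54. Translated and aligned in pairs, grx4 and grx5 shared 41.0% of 122 aligned residues and grx1 and grx2 shared 38.6% of 101. The other 8 pairs shared 20.0% to 30.0%.

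The deposited tables place grx1 at chrI:4874165-4875051 on the plus strand and grx2 at chrI:3731077-3732340 on the plus strand. They place grx3 at chrIII:1735279-1736165 on the minus strand, grx4 at chrII:3957094-3958479 on the plus strand and grx5 at chrI:2708050-2709309 on the plus strand. No fission yeast build is named in the sources used here, so these coordinates are as the tables list them. No other listed gene overlapped grx1, grx4 or grx5. In grx2 only the first 236 of 1264 bases (18.7%) were free of other genes. The antisense long non-coding RNA SPNCRNA.931 covered 967 bases (76.5%) and the neighbour fub1 covered 67 bases (5.3%). In grx3, 759 of 887 bases (85.6%) were free, with rox3 over 66 bases (7.44%) and the antisense SPNCRNA.1225 over 128 bases (14.4%).

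This overlap bears on what was counted. The authors' counting set neither a strand option nor the option that assigns a read pair to several genes, and 808 of the 897 genes with no free base (90.1%) had 0 counts in all 15 libraries, against 86 of the 2301 wholly free genes (3.74%). SPNCRNA.931 itself had 0 counts in every library. The grx2 values therefore come mainly from its 5′ end, whose free stretch ends at base 3731312. Read pairs wholly over the rest of the gene were, by these counts, for the most part not assigned. Pairs that reach into it from the free stretch may have been. A change confined to the rest of the gene could thus be missed.

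**Figure D1:**
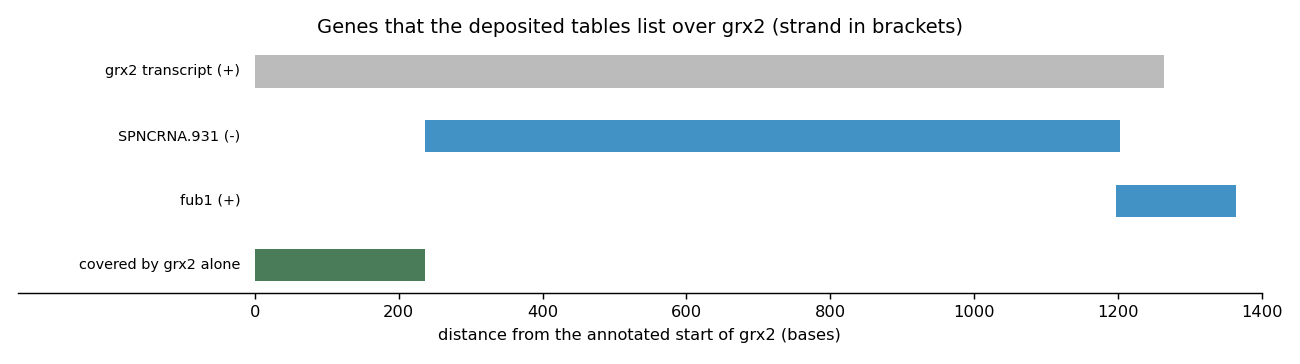
Genes that the deposited tables list over grx2, drawn to scale as distance in bases from the start of grx2. The bars show grx2, its stretch of 236 bases covered by no other gene, the antisense SPNCRNA.931 over 967 bases, and the part of fub1 near the end of grx2.

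Library totals ran from 14691752 to 23232575 counts. On the first principal component, which held 45.6% of the variance, the 3 libraries without irradiation lay at -34.59 to -30.14 and the 12 treated ones at -2.44 to 17.07. Libraries are named a to c, the letters of the deposited columns, which the labels do not tie to their replicate numbers. Values are CPM, the counts divided by the TMM-scaled library size, as mean ± SD with n = 3 libraries per group. Differences are log2 fold changes ± SE from edgeR's quasi-likelihood F-test, two-sided, and a difference was called where the p-value adjusted by Benjamini-Hochberg over all genes tested was under 0.05. Where the libraries of groups are said to lie apart, the share of all genes for which this held was not computed. In bulk RNA, fewer cells that express a gene and less RNA per cell cannot be told apart.

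The members differed widely in level. Per kilobase of listed length and without irradiation, grx1 stood highest at 288 ± 111 CPM per kb, followed by grx4 at 152 ± 12.6 and grx5 at 88.5 ± 5.94. Below them came grx3 at 56.3 ± 0.935 and grx2 at 9.94 ± 1.503 CPM per kb. This order of group means was the same in all 5 groups. The listed length spans each gene from start to end, introns included. The coding sequence has 4 exons in grx1 and in grx2, 2 in grx5 and 1 in grx3 and in grx4. Per base of spliced RNA, grx1, grx2 and grx5 are therefore set too low beside grx3 and grx4, by an amount not measured. Without irradiation grx1 ranked 363rd from the highest of 5214 genes in this level, grx4 670th, grx5 1097th and grx3 1694th. The low place of grx2 depends on the length it is divided by. Per kilobase of the stretch free of other genes, a measure chosen after seeing the data, grx2 stood at 53.3 ± 8.05 and grx3 at 65.8 ± 1.09 CPM per free kb. Any counted pairs that reach past the free stretch would make this measure too high. On that scale the group means of grx2 ran from 53.3 to 61.3 and those of grx3 from 56.8 to 67.4, so the order of these neighbours turned between groups.

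**Figure D2:**
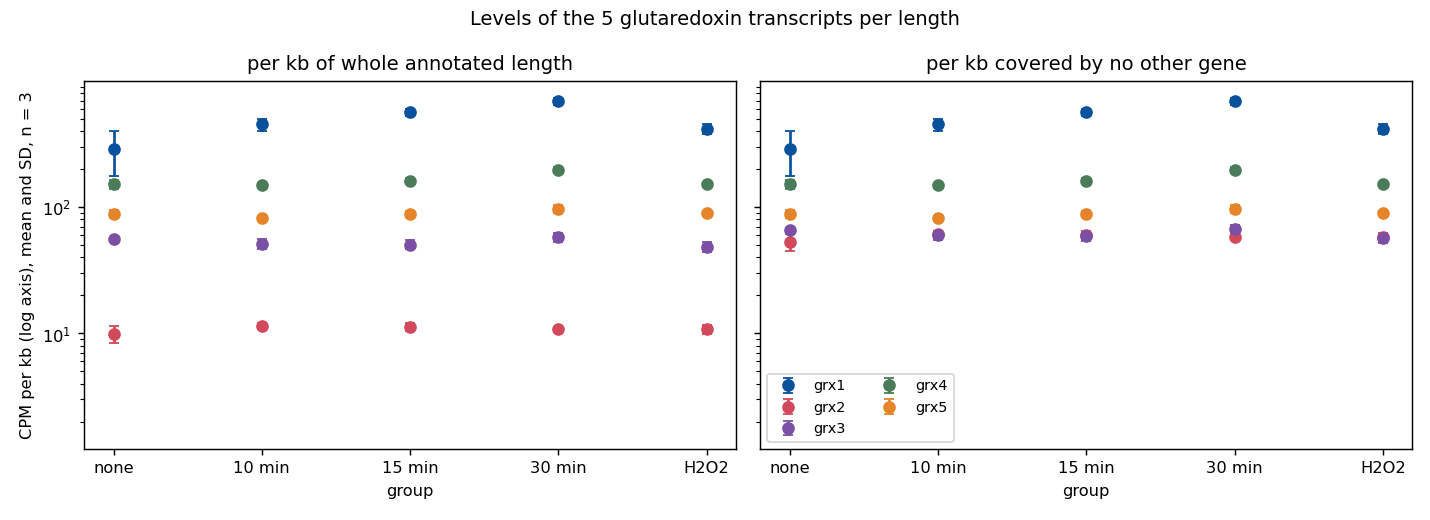
Levels of the 5 genes in CPM per kb on a log axis, for all 15 libraries by group, divided by the whole listed length (left) and by the length that no other gene covers (right). The grx2 means move from 9.94 to 11.4 on the left to 53.3 to 61.3 on the right, beside grx3, while grx1, grx4 and grx5 are the same in both panels.

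The sum over the 5 genes undercounts grx2 and uses listed lengths that include introns. It was 595 ± 129 CPM per kb without irradiation and 748 ± 47.4, 878 ± 54.4 and 1053 ± 25.7 at 10, 15 and 30 min. With H2O2 it was 720 ± 43.2. The grx1 share of that sum was 47.4% ± 7.45 without irradiation, 65.6% ± 2.82 at 30 min and 58.1% ± 1.57 with H2O2. In single libraries this share ran from 43.1% to 56.0% without irradiation and from 62.3% to 67.5% at 30 min. These sums are descriptions and were not tested.

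The dithiol gene grx1 rose after plasma and with H2O2. Without irradiation it stood at 201, 369 and 197 CPM in libraries a, b and c. At 10 min it stood at 354, 437 and 413 CPM, and at 15 min at 463, 514 and 528 CPM. At 30 min the values were 566, 635 and 637 CPM, and with H2O2 401, 377 and 337 CPM. All libraries at 15 and 30 min lay above all 3 controls, whereas at 10 min library a and with H2O2 library c lay below control b.

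Against no irradiation the group mean went from 256 ± 98.4 CPM to 401 ± 42.8 at 10 min, a log2 fold change of 0.65 ± 0.18 (edgeR adjusted p = 0.00974). At 15 min it was 502 ± 34.3 CPM (0.97 ± 0.18, edgeR adjusted p = 0.000353). At 30 min it was 613 ± 40.6 CPM (1.26 ± 0.18, edgeR adjusted p = 2.41e-05), a 2.40-fold level with a 95% interval from 1.83 to 3.14. With H2O2 it was 372 ± 32.1 CPM (0.54 ± 0.18, edgeR adjusted p = 0.0196), a 1.45-fold level.

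Control library b carried most of the spread among the controls. Its grx1 level was 1.86 times the mean of libraries a and c, and 113 of 5214 genes tested (2.17%) had a ratio at least as high. The part of that library in the grx1 result was measured by leaving it out, which raised the log2 fold changes to 1.01, 1.34 and 1.64 at the successive plasma times and to 0.91 with H2O2. The 10 min call was lost without control a (0.50, edgeR adjusted p = 0.052) and with the groups fitted alone (0.65, edgeR adjusted p = 0.05). The H2O2 call was lost without control a (0.39, edgeR adjusted p = 0.0955), without control c (0.38, edgeR adjusted p = 0.0864), without H2O2 library a (0.48, edgeR adjusted p = 0.0628) and with the groups fitted alone (0.54, edgeR adjusted p = 0.085). The calls at 15 and 30 min held under all 13 alternatives run for each.

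**Figure D3:**
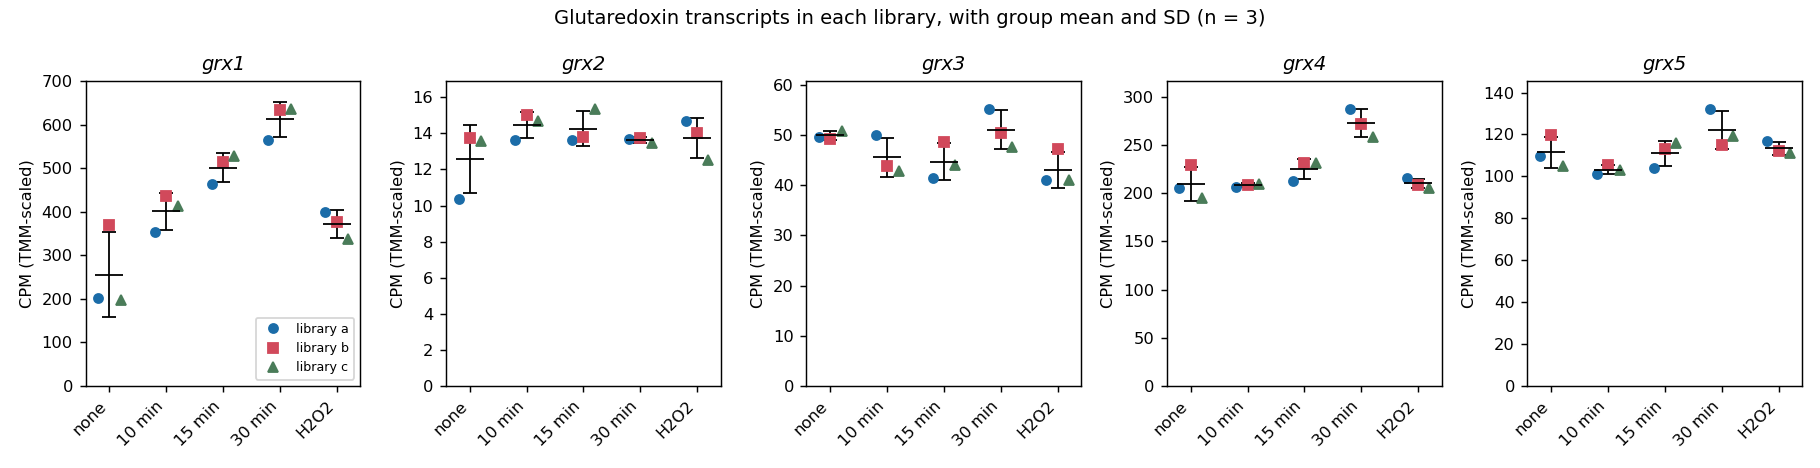
CPM of each gene in every library, with 1 panel per gene and the 5 groups along the horizontal axis. Points are libraries, and the bars give mean ± SD (n = 3). The grx1 panel shows the climb from 256 to 613 CPM and the high control b at 369, grx4 is raised at 30 min, and grx2 stays between 10.4 and 15.4 CPM.

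The sequence before grx1 is shown because it holds a motif related to those bound by ATF/CREB-type factors such as Atf1, the stress regulator of fission yeast. The run covers chrI:4873969-4874164 on the plus strand of ASM294v3, directly before the transcript start in the deposited tables, which lies 54 bases upstream of the RefSeq start. The capitals mark TGACGT, which begins 72 bases before the RefSeq start.
grx1 upstream: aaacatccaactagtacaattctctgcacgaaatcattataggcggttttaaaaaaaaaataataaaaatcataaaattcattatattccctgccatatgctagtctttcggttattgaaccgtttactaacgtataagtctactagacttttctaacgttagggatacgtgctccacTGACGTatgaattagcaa
In windows of 300 bases (250 before to 50 after the RefSeq start, both strands), TGACGT stood in 5.91% of 5112 genes and, among the members, in grx1. Of the other motifs searched, TGATAA (26.8% of windows) stood in grx1 and grx2, and AGATAA (24.3%) in grx4 and grx5. The matches in grx1, grx2 and grx4, at -19, -2 and -236 from the RefSeq start, lie inside the transcripts as the deposited tables list them. The grx5 match, at -31, lies before both annotated starts. TTACGTAA (0.469%), CCAAT (42.2%) and GAANNTTC (11.1%) stood in no member. The whole grx4 window, chrII:3957134-3957433, lies inside the grx4 transcript as the deposited tables list it. The sequence before that listed start was not searched, so no absence in grx4 covers it. The motifs TGACGT and TTACGTAA, the latter related to Pap1-type motifs, overlap in sequence. The GATA-type motifs AGATAA and TGATAA, of the kind Fep1 binds, differ in the first letter alone. The Php complex is known for binding CCAAT, and heat shock factor for binding repeats like GAANNTTC. A match describes letters, not a bound site.

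The other dithiol gene, grx2, gave no call in any of the 10 comparisons. It stood at 10.4, 13.8 and 13.6 CPM without irradiation. The 10 min libraries held 13.6, 15.0 and 14.7 CPM, the 15 min libraries 13.6, 13.8 and 15.4 and the 30 min libraries 13.7, 13.8 and 13.5 CPM. With H2O2 it stood at 14.7, 14.02 and 12.5. The lowest value was control a, and the control range reached into every treated group. Counts per library were 207 to 358, the lowest of the 5 members, which sets the widest counting error. Its 30 min log2 fold change was 0.12 with a 95% interval from -0.11 to 0.36 (edgeR adjusted p = 0.365), and the 10 min one 0.21 from -0.03 to 0.44 (edgeR adjusted p = 0.15). These intervals do not reach the 30 min grx1 value of 1.26, though the difference between the genes was not tested and grx2 was seen mainly through its 5′ stretch.

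Among the monothiol genes, grx4 was higher at 30 min. It stood at 206, 229 and 195 CPM without irradiation, and at 206, 209 and 210.2 CPM at 10 min. The 15 min libraries held 213, 232 and 232 CPM and the 30 min libraries 288, 272 and 259 CPM. With H2O2 the values were 216, 209 and 206 CPM. All 3 libraries at 30 min lay above every other library of the series. The 30 min group mean of 273 ± 14.5 CPM against 210.1 ± 17.5 gave a log2 fold change of 0.38 ± 0.06 (edgeR adjusted p = 8.62e-05), a 1.30-fold level. In the other 3 comparisons, 10 min, 15 min and H2O2, the changes were -0.01 ± 0.06, 0.10 ± 0.06 and 0.00 ± 0.06, with edgeR adjusted p of 0.904, 0.184 and 0.984. The H2O2 interval ran from -0.13 to 0.13. Without control b the 15 min change was 0.18 (edgeR adjusted p = 0.0181).

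For grx5, the mitochondrial member, no call was made against no irradiation. It stood at 109.9, 119.7 and 105 CPM without irradiation. The 10 min libraries held 101, 105 and 103 CPM, the 15 min ones 104, 113 and 116, and the 30 min ones 132, 115 and 119. With H2O2 the values were 117, 112 and 111 CPM. The 30 min range overlapped the control range, with library a at 30 min the highest of the 15. The 30 min change was 0.13 ± 0.06 (edgeR adjusted p = 0.0728). It passed without control b (0.20, edgeR adjusted p = 0.00982) and without 30 min library b (0.17, edgeR adjusted p = 0.0389).

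For grx3, a fall was called with H2O2 only among the 4 comparisons with no irradiation, and by a small margin. It stood at 49.6, 49.3 and 50.9 CPM without irradiation and at 41.0, 47.2 and 41.0 CPM with H2O2. All 3 H2O2 libraries lay below all 3 controls, although library b was close to them. The log2 fold change was -0.21 ± 0.08 (edgeR adjusted p = 0.0346), from 49.95 ± 0.829 to 43.1 ± 3.57 CPM. The call was lost in 6 of 13 alternatives, with values from -0.28 to -0.18 over all 13 and adjusted p up to 0.124. Those 6 were total counts in place of TMM scaling and the fits without control a, b or c or without H2O2 library a or c, with adjusted p of 0.0946, 0.0649, 0.0663, 0.0758, 0.115 and 0.124. With plasma grx3 held 50.1, 43.8 and 42.9 CPM in the 10 min libraries, 41.4, 48.7 and 44.0 in the 15 min ones and 55.3, 50.5 and 47.6 in the 30 min ones. The 10 and 30 min libraries overlapped the controls, and the 15 min ones lay just below them. The changes were -0.13, -0.16 and 0.03 (edgeR adjusted p = 0.204, 0.112 and 0.735), and the 15 min fall passed without 15 min library b (-0.22, edgeR adjusted p = 0.0469).

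The members' counts are read against those of all genes tested. At 10 min 1 of the 5 members was higher, where 21.9% of all genes tested were higher, 17% lower and 38.8% either. At 15 min 1 was higher, against 27.1% higher, 24.8% lower and 51.9% either. At 30 min 2 were higher, against 31% higher, 29% lower and 60% either. With H2O2 1 was higher and 1 lower, against 28.5% higher, 25.6% lower and 54.1% either. No member was lower at any plasma time, by edgeR, by DESeq2 or at an unadjusted p under 0.05. The median log2 fold change of the members was -0.01, 0.10, 0.13 and 0.02 in that order, and that of all genes tested between -0.01 and 0.00. The 4 comparisons share the 3 control libraries.

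**Figure D4:**
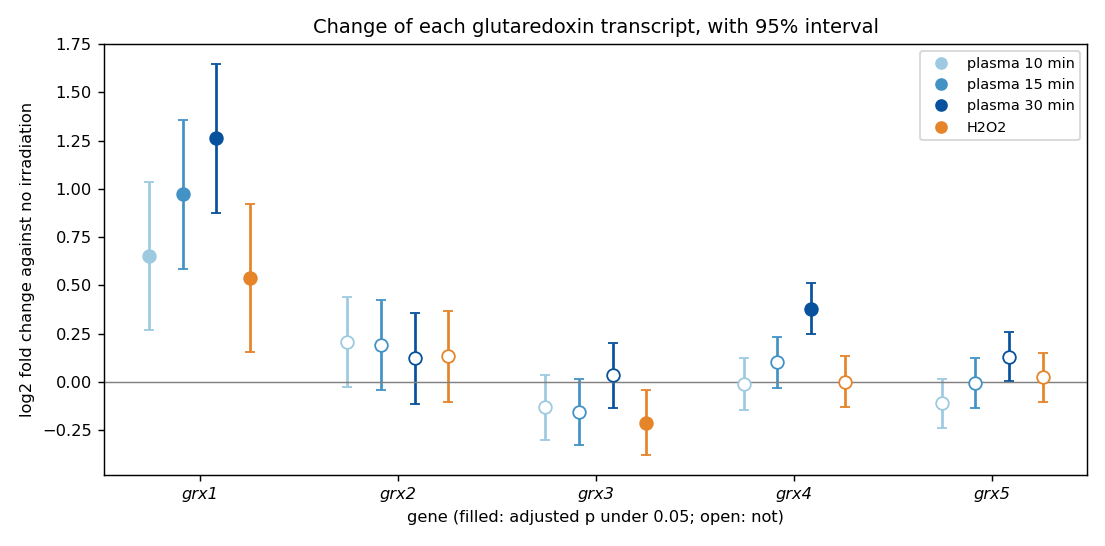
Log2 fold change of each gene against no irradiation at 10, 15 and 30 min after plasma and with H2O2, with 95% intervals. Filled points passed the adjusted p threshold of 0.05: grx1 in all 4 comparisons, grx4 at 30 min (0.38) and grx3 with H2O2 (-0.21).

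Compared with one another, the plasma times differed for grx1, grx4 and grx5. From 10 to 30 min grx1 rose by 0.61 ± 0.18 (edgeR adjusted p = 0.0138), grx4 by 0.39 ± 0.06 (edgeR adjusted p = 0.000162) and grx5 by 0.24 ± 0.06 (edgeR adjusted p = 0.00498), with no overlap of libraries for any of these genes. These are 3 of 5 members, where 19.9% of all genes were higher, 18.9% lower and 38.8% either. From 15 to 30 min grx4 rose by 0.28 ± 0.06 (edgeR adjusted p = 0.00402), 1 of 5 members where 15.1% of genes were higher, 13.7% lower and 28.7% either. From 10 to 15 min none of 5 was called by edgeR or DESeq2, and 0 had an unadjusted p under 0.05, where 7.67% of genes were higher, 5.96% lower and 13.6% either. With total counts the higher share of all calls went from 51.2% to 40.7% between 10 and 30 min, from 52.4% to 29.4% between 15 and 30 min and from 56.3% to 70.8% between 10 and 15 min. The grx1 difference from 10 to 30 min was lost without 10 min library a (0.52, edgeR adjusted p = 0.0628).

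Set against H2O2, the 30 min plasma group stood higher for grx1 by 0.72 ± 0.18 (edgeR adjusted p = 0.0066), for grx4 by 0.38 ± 0.06 (edgeR adjusted p = 0.000328) and for grx3 by 0.25 ± 0.08 (edgeR adjusted p = 0.0281). These are 3 of 5 members, where 15.3% of genes were higher, 16.7% lower and 32% either, and with total counts the higher share of calls went from 47.8% to 36.6%. The grx3 difference was lost with total counts (0.20, edgeR adjusted p = 0.211), without 30 min library a or b (adjusted p = 0.126 and 0.0586) and without H2O2 library a or c (adjusted p = 0.0984 and 0.106). Between 10 min and H2O2 edgeR and DESeq2 called 0 members, and 1, grx5, had an unadjusted p under 0.05, where 14.8% of genes were higher, 17.5% lower and 32.3% either. Between 15 min and H2O2 both called 0, and 1, grx1, had an unadjusted p under 0.05, where 9.9% of genes were higher, 13.2% lower and 23.1% either. For grx1 those differences were 0.11, with a 95% interval from -0.27 to 0.49, and 0.43, from 0.05 to 0.82, before adjustment. The grx1 difference between 15 min and H2O2 gained a call in 2 of 13 alternatives. The doses of plasma and H2O2 are not given, so the comparison is between these treatments as applied. The H2O2 libraries were deposited in a table of their own. Any difference in handling or sequencing between them and the other libraries cannot be told apart from the treatment.

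In order of group means, grx1 ran from 30 min through 15 min, 10 min and H2O2 to no irradiation. Between neighbours in that order the test called H2O2 against no irradiation and no other step, and that call was lost in 4 of 13 alternatives. The steps from 10 to 15 min and from 15 to 30 min each gained a call in 1 of 13 (edgeR adjusted p = 0.0445 and 0.0149). The grx1 SE near 0.18 came from 1 fit over all groups. Its SD was 38.5% of the mean in the controls and 6.63% to 10.7% in the treated groups. For grx4 the order was 30 min, 15 min, H2O2, no irradiation and 10 min, and the step from 30 to 15 min was the one called. Neighbouring groups of grx2, grx3 and grx5 did not differ beyond their spread.

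Across the 15 libraries, grx4 and grx5 varied together most closely of the 10 pairs (Pearson r = 0.794 of log2 CPM), followed by grx1 and grx4 (0.761). The dithiol pair grx1 and grx2 had r = 0.547 and grx1 and grx3 r = -0.05. The genes most like each member among 4252 protein-coding genes were found by the same measure. For grx1 these were glo1, a glyoxalase gene (0.982), tam11 (0.974) and SPAC26F1.07 (0.969). The glo1 mean went from 186 ± 45.7 CPM without irradiation to 404 ± 1.95 at 30 min and 258 ± 6.7 with H2O2. For grx4 they were pdx3, a vitamin B6 enzyme gene (0.952), SPBC3B8.06 (0.921) and spn1, a septin gene (0.916), with pdx3 at 145 ± 14.9 CPM without irradiation and 217 ± 7.93 at 30 min. For grx5 they were vps32, an ESCRT subunit gene (0.874), ypt71 (0.84) and ser1, of serine synthesis (0.827), for grx3 emc5 (0.928), mug123 (0.787) and vma6 (0.773), and for grx2 sdh3, a succinate dehydrogenase subunit gene (0.873), sei1 (0.782) and thi20 (0.759). These points share groups and libraries and describe likeness in these samples alone.

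The glutathione system supplies the reductant that glutaredoxins use. Of 11 listed genes, 10 were tested. Higher were 5 at 10 min, 5 after 15 min, 7 by 30 min and 7 with H2O2, and lower were 1, 0, 1 and 1 in that order. Among all genes tested 21.9%, 27.1%, 31% and 28.5% were higher and 17%, 24.8%, 29% and 25.6% lower in these comparisons, and the lists that follow are read against the same shares. The median change was 0.11, 0.24, 0.45 and 0.67. The glutathione S-transferase gene gst3 rose from 69.2 ± 13.2 to 378 ± 24.4 CPM at 30 min (2.45 ± 0.13, edgeR adjusted p = 8.91e-10), and gst2 from 394 ± 38.4 to 2080 ± 82 CPM (2.40 ± 0.13, edgeR adjusted p = 6.9e-10). The synthesis genes changed less at 30 min, gcs1 by 0.59 ± 0.05 (edgeR adjusted p = 9.42e-08) and gsa1 by 0.31 ± 0.05 (edgeR adjusted p = 8.57e-05). The glutathione reductase gene pgr1 changed by 0.19 ± 0.07 (edgeR adjusted p = 0.0268) and was not called at 10 or 15 min. Of the gsa1 length 49.4% is free of other genes. With H2O2 gcs1, gsa1 and pgr1 rose by 0.82, 0.39 and 0.52. The gene zwf1, which encodes the NADPH-producing glucose-6-phosphate dehydrogenase, rose with H2O2 to 2703 ± 59.1 CPM from 705 ± 16.5 (1.94 ± 0.08, edgeR adjusted p = 3.67e-11). The glutathione transporter gene pgt1 fell at 10 min from 156 ± 12.5 to 80.3 ± 2.94 CPM (-0.96 ± 0.12, edgeR adjusted p = 1.21e-05). The remaining gene, ggt2, has no base free of other genes and 0 counts.

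The thioredoxin system, the parallel route of thiol reduction, had 10 listed genes, all tested. Of these 4, 5, 7 and 8 were higher in the 10, 15 and 30 min plasma and H2O2 comparisons and 1, 3, 0 and 2 were lower, where 21.9% to 31% of all genes tested were higher and 17% to 29% lower, with median changes of 0.40, 0.38, 0.84 and 1.07. The sulfiredoxin gene srx1 rose from 17.98 ± 0.775 CPM without irradiation to 744 ± 40.8 at 30 min (5.37 ± 0.09, edgeR adjusted p = 4.12e-15) and 1585 ± 64 with H2O2 (6.46 ± 0.10, edgeR adjusted p = 5.29e-16). The thioredoxin reductase gene trr1, of whose length 29.7% is free of other genes, rose from 269 ± 9.27 to 1297 ± 139 CPM at 30 min (2.27 ± 0.17, edgeR adjusted p = 2.31e-08) and 2750 ± 163 with H2O2 (3.36 ± 0.18, edgeR adjusted p = 6.34e-10). The peroxiredoxin gene pmp20 fell with H2O2 from 1390 ± 305 to 942 ± 67.5 CPM (-0.56 ± 0.16, edgeR adjusted p = 0.00767), a call lost without control b. At 15 min it was also lower (1036 ± 208 CPM, -0.42 ± 0.16, edgeR adjusted p = 0.0355), a call lost in 3 alternatives. At 30 min it was higher (1945 ± 241 CPM, 0.48 ± 0.16, edgeR adjusted p = 0.0157), a call lost without control a or c or without 30 min library b or c, and the 10 min group stood at 1846 ± 188 CPM (edgeR adjusted p = 0.0532).

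Among the iron regulators, which include the partners of Grx4, 7 genes were tested. In the same 4 comparisons 2, 4, 5 and 4 were higher and 2, 1, 1 and 1 were lower, against the same shares of 21.9% to 31% and 17% to 29% of all genes, with medians of -0.07, 0.29, 0.44 and 0.19. The gene php4, for the regulator that acts under low iron, rose at 30 min from 70.9 ± 3.58 to 115 ± 2.16 CPM (0.70 ± 0.06, edgeR adjusted p = 6.49e-08), and php3, a subunit of the CCAAT-binding complex, from 46.5 ± 2.99 to 69.1 ± 3.28 CPM (0.57 ± 0.06, edgeR adjusted p = 8.78e-07). The iron repressor gene fep1 rose with H2O2 from 110.2 ± 12.2 to 135 ± 2.78 CPM (0.29 ± 0.08, edgeR adjusted p = 0.0049). The gene fra2, with 28.2% of its length free of other genes, was lower in all 4 comparisons, from 32.3 ± 3.76 CPM to 24.0 ± 2.98 with H2O2 (-0.43 ± 0.10, edgeR adjusted p = 0.00139), and its 10 min call was lost in 6 alternatives and its 15 min call without control b.

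Of the iron-sulfur cluster assembly genes, 24 were listed, 20 matched and 17 tested. In the same order 4, 5, 6 and 4 were higher and 3, 4, 7 and 4 were lower, with medians of 0.00, 0.01, 0.05 and -0.07. These counts lie near the 21.9%, 27.1%, 31% and 28.5% of all genes that were higher and the 17%, 24.8%, 29% and 25.6% that were lower, apart from 7 of 17 lower at 30 min. The scaffold gene isu1 was higher in all 4 comparisons, at 584 ± 20.6 CPM at 30 min against 329 ± 19.9 (0.83 ± 0.09, edgeR adjusted p = 1.09e-06). The mitochondrial exporter gene atm1 rose at 30 min from 72.5 ± 4.75 to 118 ± 7.95 CPM (0.70 ± 0.06, edgeR adjusted p = 6.94e-08). The cytosolic assembly gene nar1 fell at 30 min from 52.5 ± 9.03 to 35.7 ± 1.37 CPM (-0.55 ± 0.13, edgeR adjusted p = 0.00172). The frataxin gene fxn1 fell with H2O2 from 33.0 ± 2.77 to 26.4 ± 1.25 CPM (-0.33 ± 0.07, edgeR adjusted p = 0.00106). Larger called H2O2 changes lay in genes with little free length. There nbp35 (14.4% free) fell from 6.82 ± 1.28 to 3.16 ± 0.438 CPM (-1.12 ± 0.197, edgeR adjusted p = 0.000207). For dre2 (21.7% free) the change was 0.91 ± 0.255 (edgeR adjusted p = 0.00719). At 30 min nbp35 was also lower (-0.61 ± 0.192, edgeR adjusted p = 0.0129), a call lost without control a or b. The median change of all genes tested lay between -0.01 and 0.00 in these 4 comparisons, and the 4 lists were chosen with earlier results of these data known.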

How the data were processed

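The authors deposited raw counts per gene, whole numbers, for 15 libraries in 2 tables of 6998 genes, with the 3 H2O2 libraries in a table of their own and compared with the same controls. The submitters' processing notes name HISAT2 2.2.1, SAMtools 1.13 and, as the build, R64, which is a budding yeast name. Per the file headers, featureCounts 2.0.1 counted read pairs over transcript features by gene, with no strand option and none for overlapping genes, although per the labels' protocols the libraries came from a stranded mRNA kit. Identifiers were matched to RefSeq ASM294v3 (6852 matched), and 99.8% of 5100 protein-coding genes shared a start or end with it. Genes were filtered with filterByExpr by group (5214 kept), scaled with TMM and fitted with 1 mean per group in edgeR 4.0.16 (R 4.3.3, quasi-likelihood F-test), with Benjamini-Hochberg adjustment over all genes tested in each of 10 comparisons and a common biological coefficient of variation of 8.8%. Steps were tested on simulated data. Replicates differed by more than counting error (chi-square per degree of freedom from 8.757 to 78.79). The p-values weigh each difference of group means against a spread estimated over all 15 libraries in 1 fit. Named genes were the members, the 3 protein-coding genes most like each (mean count of at least 50, prior count 2), genes that overlap a member, and up to 2 highest and 2 lowest called genes per list and treatment, of which the report prints a selection made after their values were seen. Of these 53 list results, 40 kept their call under every alternative. The glutathione genes gcs1, gsa1 and pgr1 are printed besides these, also after their values were seen. The gene family and the lists were chosen with earlier results of these data known, although the rule for the members uses no measured value. Alternatives were RLE size factors, total counts, DESeq2 1.42.0, other filters, the groups compared alone, a replicate block by library letter, and each library left out.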

Additional observations from a re-analysis of the deposited data

Results flagged for a closer look

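The tested differences between plasma times stood out because the change from the shared controls was not the same at both times. For grx4 the change was larger at 30 min than at 15 min by 0.2761 on the log2 scale and larger than at 10 min by 0.3891. For grx1 it was larger at 30 min than at 10 min by 0.6107, and for grx5 by 0.2428. Fitted by edgeR, the adjusted p was 0.00402 and 0.000162 for grx4, 0.0138 for grx1 and 0.00498 for grx5. In each case 3 of 3 libraries of the later group lay above every library of the earlier one. Of all genes tested, 28.7% were called between 15 and 30 min and 38.8% between 10 and 30 min. The share of all genes with such a separation of libraries was not computed.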

How the results depend on the processing

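Over the 50 member results, 621 alternatives left the side of the threshold as it was, 18 lost a call and 11 gained one. No sign turned among the 169 alternatives of called results. Among the 481 of uncalled results 30 signs turned, in 13 of 37 results, to values of at most 0.0541 in size. Leaving out 1 library in turn, the members called ranged from 0 to 1 at 10 min, 1 to 2 at 15 min, 0 to 2 with H2O2, and 1 to 2 between 15 and 30 min. Fitted to the groups alone, 0 were called at 10 min, 1 with H2O2, 1 between 10 and 15 min, 2 between 15 and 30 min, and 1 each between H2O2 and 10 or 15 min. With total counts, 1 was called with H2O2 and 1 between 15 min and H2O2. Iron regulators called were 2 at 10 min with the groups alone and 3 with H2O2 with total counts, and ranged over left-out libraries from 2 to 3 at 10 min and 3 to 6 at 15 min. Iron-sulfur assembly genes called at 15 min were 5 with total counts and 5 with the groups alone (5 to 9 over left-out libraries). Thioredoxin genes called at 15 min were 5 with the groups alone (5 to 8). The cause was not tested. Over all genes, 464 rather than 711 were called between 10 and 15 min without 10 min library a. With a replicate block by library letter, grx1 at 30 min was 1.29 (edgeR adjusted p = 4.42e-06), and no member call changed. What the letters mark is not stated. Of 30 same-letter correlations of deviations 17 exceeded 0.1 (-0.113 to 0.31), with all 3 letters above it in 2 of 10 pairs of groups, no irradiation with 10 min and 10 with 30 min. In 5 of the 10 pairs every library correlated best with its own letter, a hint from the data, not the design. Those pairs were no irradiation with each plasma time, and 10 min with 15 and 30 min. Between 15 and 30 min 4 of 6 libraries did so, and in each pair with H2O2 only 2 or 3 of 6. Counts of 207 to 358 limit grx2.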
